A study of Homo sapiens with 17 samples.

Results

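The transcript levels of 9 genes of the antioxidant and iron-storage response were followed in YB5 cells: the NRF2 targets HMOX1, NQO1, GCLM, GCLC, TXNRD1, SLC7A11 and SRXN1, and the ferritin genes FTH1 and FTL. They were taken by name from the 19141 genes of the deposited count table, and all 9 were counted and passed the filter on low counts in every comparison. YB5 is a reporter line made from SW48 human colon cancer cells, with GFP inserted behind a methylated and silent CMV promoter, so every value comes from 1 cell line. Cells received 250 nM toyocamycin, an adenosine analogue, or the DMSO vehicle, and polyadenylated RNA was sequenced after 2, 10, 24, 48 and 72 h. The 17 labelled libraries comprised 8 of DMSO and 9 of toyocamycin: 2 per arm at 2 h, 1 of DMSO and 2 of toyocamycin at 10 h, 1 per arm at 24 h and at 48 h, and 3 per arm at 72 h. Replicate 2 of each arm at 2 and 10 h belongs to batch 2 in the labels and all other libraries to batch 1, and the labels call the replicates biological. Times are those of the labels, and the publication gives a later hour than the labels for the last of them.

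NRF2, encoded by NFE2L2, is the transcription factor that switches on antioxidant and detoxifying genes when oxidants or electrophiles modify KEAP1, the adaptor that otherwise hands NRF2 to the CUL3 ubiquitin ligase for destruction. Together with a small MAF protein (MAFF, MAFG or MAFK), NRF2 binds antioxidant response elements, and BACH1 competes for the same elements as a repressor, above all at HMOX1. The targets cover heme breakdown (HMOX1), quinone reduction (NQO1), glutathione synthesis (GCLM, GCLC and the cystine carrier SLC7A11), the thioredoxin system (TXNRD1 and SRXN1) and iron storage (FTH1 and FTL). Tumor cells often keep this pathway raised.

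The upstream sequences of GCLM and TXNRD1 are shown because, of the windows searched, only theirs hold the core of the antioxidant response element close to their starts. RefSeq windows of 300 bases (GRCh38.p14, 250 before to 50 after a start) existed for 6 of the 9 genes, namely NQO1, GCLM, GCLC, SRXN1 and FTL with 1 window each and TXNRD1 with 2. They were searched on both strands for TGACNNNGC, which reads GCNNNGTCA on the other strand. The core was present in 3 of these 7 windows, against 13.3% of all 35116 windows of this length, and its presence is a description of letters, not a site of binding. The capitals mark the match, and each line runs 5′ to 3′ on the strand of the gene.
GCLM, chr1:93909431-93909494, minus strand: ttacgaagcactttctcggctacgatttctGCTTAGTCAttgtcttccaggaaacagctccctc
TXNRD1, first start, chr12:104215650-104215718, plus strand: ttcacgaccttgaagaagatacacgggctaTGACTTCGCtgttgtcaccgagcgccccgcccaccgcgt
TXNRD1, second start, chr12:104286900-104286968, plus strand: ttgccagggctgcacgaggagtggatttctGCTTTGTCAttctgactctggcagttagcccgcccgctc
The matches shown began 34 bases before the GCLM start and 99 and 102 bases before the TXNRD1 starts. A second match in the first TXNRD1 window, which began 8 bases before the start and ran over it, is not shown. The windows of NQO1, GCLC, SRXN1 and FTL held no match, and those of HMOX1, SLC7A11 and FTH1 were not analysed here.

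Between 8735465 and 22121364 reads were counted per library. Replicate 2 of toyocamycin at 10 h stood apart, with the lowest total, 14926 genes at 10 or more counts against 11423 to 13034 in the other 16 libraries, and 6.55% of counts from mitochondrially encoded protein genes, so results at 10 h are given with and without it. Levels are CPM, read counts relative to the library's total, scaled by the trimmed mean of M values (TMM). CDX1, 1 of 10 colon epithelium markers, was at 0 in all DMSO libraries, and at 72 h the summed level of the 10 was 5989 to 6932 CPM in DMSO and 535 to 571 CPM on toyocamycin (2 higher and 6 lower of 8 tested). KRT8 alone was at 4293 ± 384 CPM in DMSO and 268 ± 12.2 CPM on toyocamycin. The 2 higher were CDH17 and CDX2, the latter at -0.52 with mitochondrial scaling. These differences were taken against DMSO levels that had themselves moved. In DMSO the sum was 3102.4 to 3438.5 CPM at 2 h and 1762 CPM at 10 h, and KRT8 was at 1981 ± 228 CPM at 2 h. CDX2 fell in DMSO from 211 ± 39.0 CPM at 2 h to 69.6 ± 12.4 CPM at 72 h, against 104 ± 9.04 CPM on toyocamycin at 72 h. The summed level of 12 markers of other cell types was 2.15 to 3.27 CPM in DMSO and 107 to 122 CPM on toyocamycin at 72 h (7 higher and 0 lower of 9 tested, with HBB at 0), and 72.6 CPM in the 10 h library that stood apart. Most of the toyocamycin sum at 72 h came from ACTA2 (88.1 ± 4.93 CPM), followed by CD14 (15.6 ± 1.54 CPM). Both counts of markers at 72 h stand against 47.0% of all genes higher and 41.9% lower. Whether these shifts bear on the 9 genes was not tested, and in bulk RNA fewer cells of a kind and less RNA per cell cannot be told apart.

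**Figure D1:**
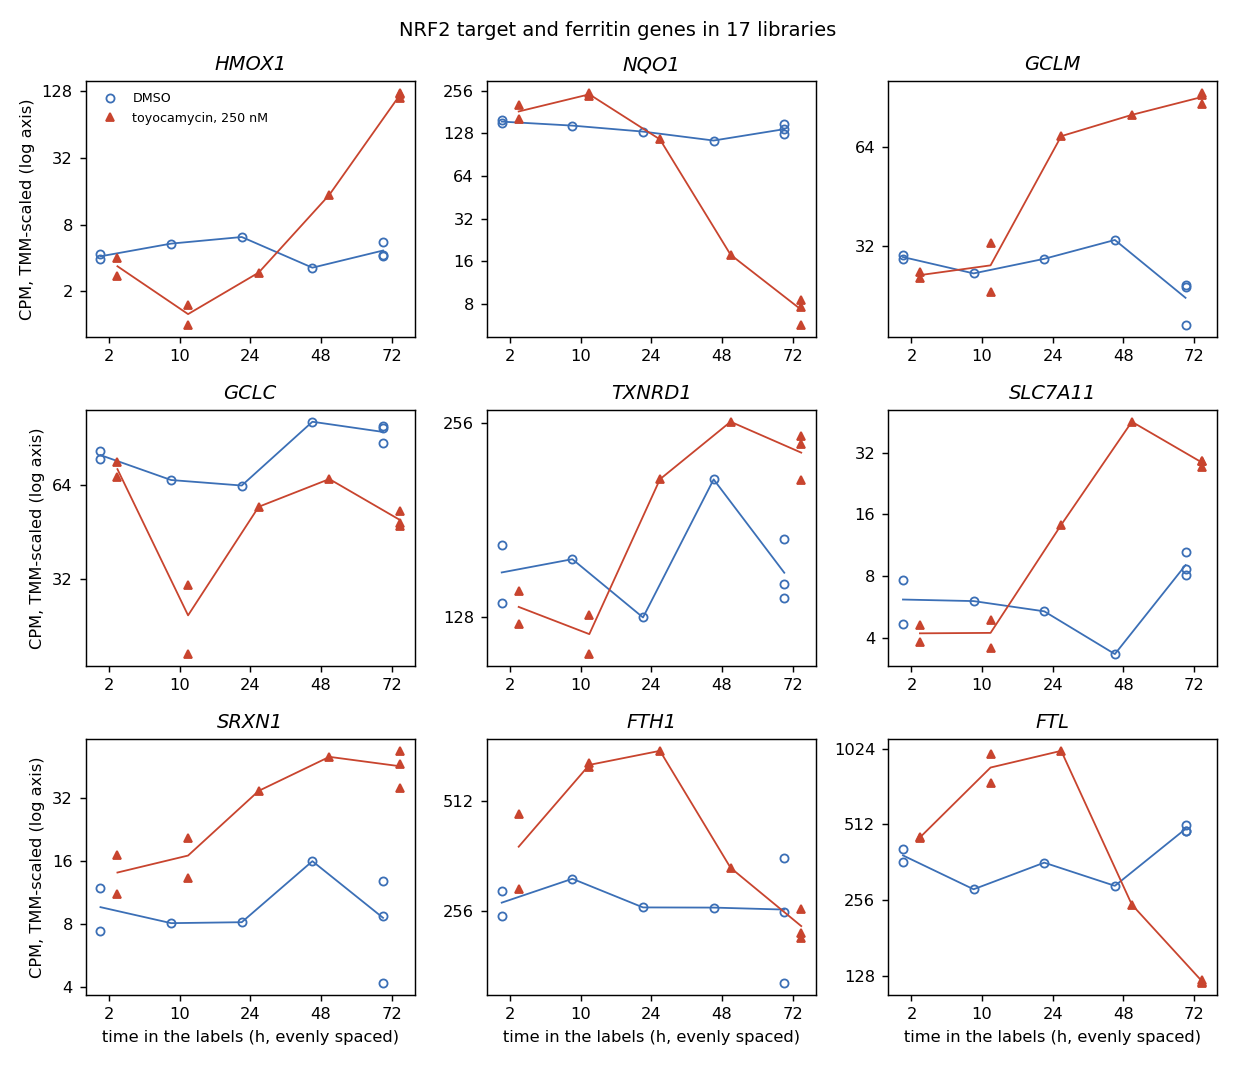
Level of each gene in every library, in TMM-scaled CPM on a log axis, against the time in the labels (evenly spaced). Open blue circles are DMSO, filled red triangles are toyocamycin, and lines join the means. At 72 h the means are 4.68 CPM in DMSO and 119 CPM on toyocamycin for HMOX1, and 137 and 7.30 CPM for NQO1.

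In DMSO, the genes spanned a wide range of levels and kept nearly the same order at all times. Per kilobase of exon, the mean over the 8 DMSO libraries was 456 ± 101 CPM (SD) for FTL, the ferritin light chain, 134 ± 28.3 for FTH1, the ferritin heavy chain, 46.7 ± 4.92 for NQO1, 23.2 ± 3.92 for TXNRD1, 9.79 ± 1.70 for GCLC, 4.95 ± 0.854 for GCLM, 3.81 ± 1.46 for SRXN1, 2.02 ± 0.422 for HMOX1 and 0.702 ± 0.242 for SLC7A11. The ranges of GCLM and SRXN1 overlapped, as did those of SRXN1 and HMOX1, and the other neighbors did not. NQO1 was the steadiest of the 9 over the DMSO libraries, with a coefficient of variation of 10.5%, and SRXN1 was the most variable, with 38.3%. FTH1 and FTL have 25 and 16 annotated processed copies in the genome, and only reads mapped to 1 place were counted, so their levels are uncertain.

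After 72 h on toyocamycin, the order of the transcripts had changed. HMOX1 moved from the eighth to the third place, at 51.5 ± 2.93 CPM per kilobase (SD, n = 3), and NQO1 moved from the third to the last place, at 2.46 ± 0.487. FTL (139 ± 1.72) and FTH1 (116 ± 11.5) stayed first and second, followed after HMOX1 by TXNRD1 (34.3 ± 2.83), SRXN1 (17.9 ± 3.55), GCLM (16.8 ± 0.684), GCLC (5.74 ± 0.338) and SLC7A11 (2.97 ± 0.125). The ranges of SRXN1 and GCLM overlapped, as did those of SLC7A11 and NQO1.

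At 72 h, where the question was how long exposure to toyocamycin changes gene expression, 5 of the 9 genes were higher than in DMSO (HMOX1, GCLM, SLC7A11, SRXN1 and TXNRD1, the last of which turned to -0.40 with mitochondrial scaling), 3 were lower (NQO1, GCLC and FTL), and FTH1 did not pass the threshold. Calls were made over 14491 genes by the quasi-likelihood test of edgeR, with an adjusted p (Benjamini-Hochberg) under 0.1. At this threshold 47.0% of all genes tested were higher and 41.9% were lower, so a share of 8 in 9 is near the 88.8% called in either direction. The libraries of the arms did not overlap for the same 5 genes on the higher side and the same 3 on the lower, where 45.8% and 41.8% of all genes did not. Against a minimum fold change of 1.5, 4 were higher and 3 lower, TXNRD1 being lost, where 41.8% and 36.0% of all genes passed. The median log2 fold change of the 9 genes was 0.65, against 0.18 over all genes tested. The median of all genes moved with the scaling, to 0.50 with DESeq2 size factors, -0.42 with library size alone and -0.89 with scaling on mitochondrially encoded genes, and that of the 9 genes to 0.97, 0.05 and -0.40. With library size alone 4 of the 9 were higher and 4 lower, and with mitochondrial scaling 3 were higher and 4 lower, FTH1 being called lower under both (-0.72 and -1.27). Shares of all genes called under other scalings are not given here, for these or later counts.

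HMOX1 (chr22:35380361-35394214), heme oxygenase 1, breaks heme down to biliverdin, carbon monoxide and iron (this and the next positions span the whole gene in GRCh38, GENCODE v44). Its level at 72 h was 4.16, 5.57 and 4.29 CPM in the DMSO libraries and 124, 121 and 111 CPM in the toyocamycin libraries. The arms were far apart, with 84 to 120 counts against 1266 to 1303. The log2 fold change was 4.70 (SE 0.18, 25.9-fold higher, edgeR adjusted p = 3.3e-12), which was 4.52 above the median of all genes and higher than that of 86.2% of them. At 10 and 24 h HMOX1 had been below DMSO. It fell at 10 h to 1.5 and 0.995 CPM, against 5.40 CPM in DMSO, with a log2 fold change of -2.06 (SE 0.33, edgeR adjusted p = 0.00017). At 24 h it was 2.96 against 6.19 CPM, and at 48 h it was 14.9 against 3.27 CPM, with 1 library per arm at both times. Thus the 10 h level was the lowest and the 72 h level the highest of the time course.

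NQO1 (chr16:69706996-69726668), the quinone reductase that serves as a common readout of NRF2 activity, took the opposite course. At 72 h it was at 126, 136 and 148 CPM in DMSO and 5.70, 7.69 and 8.52 CPM on toyocamycin. These are 2548 to 3441 counts against 58 to 98, with no overlap. The log2 fold change was -4.19 (SE 0.17, 18.2-fold lower, edgeR adjusted p = 5.7e-12), lower than that of nearly all genes, with 3.18% of genes below it. At 10 h NQO1 had been higher, at 234 and 247 CPM against 145 CPM in DMSO (log2 fold change 0.73, SE 0.25, edgeR adjusted p = 0.030), a direction that turned to -0.42 with mitochondrial scaling. It was at 116 against 131 CPM at 24 h and at 17.8 against 114 CPM at 48 h. HMOX1 and NQO1, both textbook NRF2 targets, therefore lay on opposite sides of DMSO at 48 and 72 h. At 10 h they did so except with mitochondrial scaling, and with library size alone NQO1 was at 0.28 and not called.

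**Figure D2:**
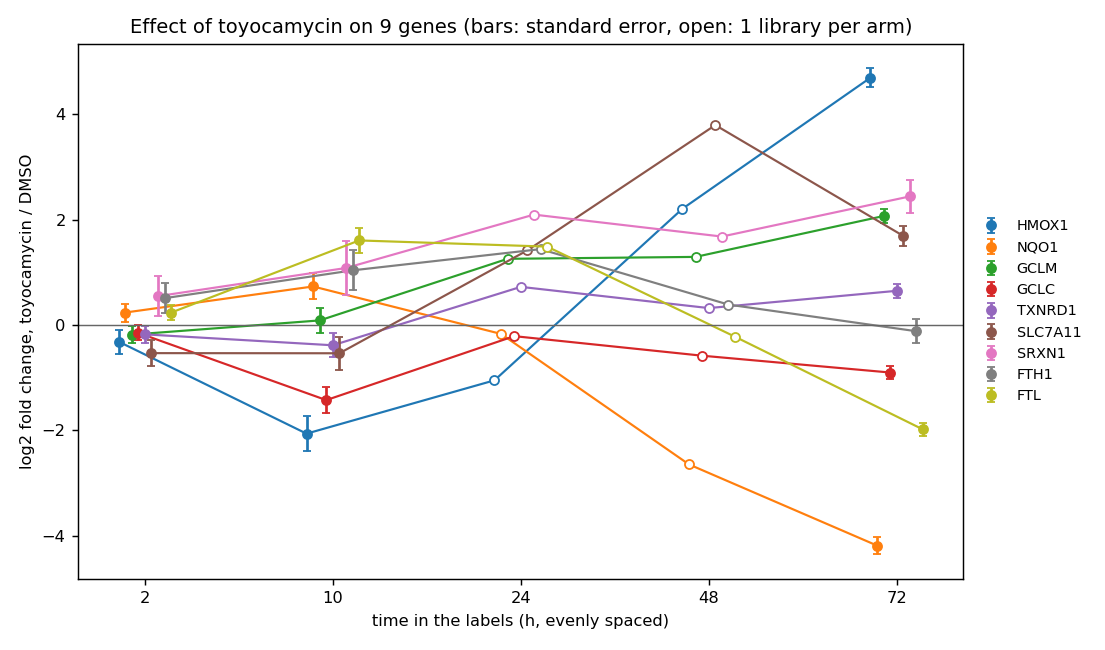
Log2 fold change of toyocamycin over DMSO for each gene against the time in the labels (evenly spaced). Bars are standard errors, and open points at 24 and 48 h have 1 library per arm and no error. HMOX1 runs from -2.06 at 10 h to 4.70 at 72 h, NQO1 from 0.73 (-0.42 with mitochondrial scaling) to -4.19, and FTL from 1.61 to -1.98.

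The 2 subunits of glutamate-cysteine ligase, which makes the first and limiting step of glutathione synthesis, moved in opposite directions. GCLM (chr1:93885199-93909456), the modifier subunit, was at 24.4, 18.3 and 23.9 CPM in DMSO and at 94.0, 87.0 and 92.7 CPM on toyocamycin at 72 h (log2 fold change 2.07, SE 0.14, 4.20-fold higher, edgeR adjusted p = 1.0e-09). GCLC (chr6:53497341-53616970), the catalytic subunit, was at 98.9, 87.5 and 97.3 CPM in DMSO and at 52.8, 47.3 and 48.4 CPM on toyocamycin (log2 fold change -0.90, SE 0.12, 1.87-fold lower, edgeR adjusted p = 3.3e-06). The arms of both genes did not overlap. GCLC was already lower at 10 h, at 30.6 and 18.5 CPM against 66.4 CPM (log2 fold change -1.43, SE 0.25, edgeR adjusted p = 0.00034), while GCLM was at 32.7 and 23.1 CPM on either side of the DMSO value of 26.4 CPM. GCLM was at 69.2 against 29.2 CPM at 24 h and 80.4 against 33.4 CPM at 48 h, and GCLC at 54.5 against 63.8 CPM and 66.9 against 102 CPM.

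The ratio of GCLM to GCLC counts within a library does not depend on how libraries are scaled. It was 0.210 to 0.458 in the 8 DMSO libraries and 0.335 and 0.392 on toyocamycin at 2 h. From 10 h on it was above 1 in all 7 toyocamycin libraries, from 1.07 to 1.25 at 10 h, through 1.27 at 24 h and 1.2 at 48 h, to 1.78 to 1.92 at 72 h. At 72 h the mean log2 ratio was 0.88 ± 0.053 on toyocamycin and -2.10 ± 0.13 in DMSO (SD, n = 3 each), a difference of 2.98 or 7.91-fold. An exact two-sided permutation test gave p = 0.1, the smallest that 3 against 3 libraries allow.

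**Figure D3:**
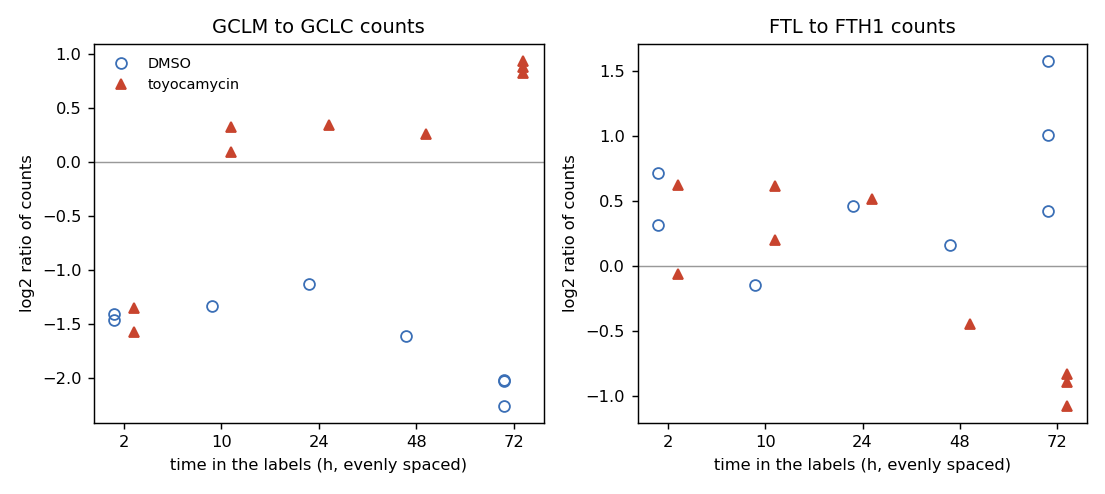
Log2 ratio of counts within each library against the time in the labels (evenly spaced), GCLM to GCLC on the left and FTL to FTH1 on the right, with 0 marking equal counts. Circles are DMSO and triangles toyocamycin. At 72 h GCLM to GCLC is 2.98 higher on toyocamycin and the log2 ratio of FTL to FTH1 differs by -1.93.

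SLC7A11 (chr4:138164097-138242349), the carrier that brings in cystine for glutathione synthesis and is also a target of ATF4, was the least abundant of the 9 in DMSO per kilobase. At 72 h it was at 8.62, 8.08 and 10.4 CPM in DMSO and at 29.3, 27.2 and 29.4 CPM on toyocamycin (log2 fold change 1.69, SE 0.19, 3.23-fold higher, edgeR adjusted p = 4.2e-07). Its largest difference was at 48 h, at 45.5 against 3.32 CPM, a log2 fold change of 3.8 from 1 library per arm. At 24 h it was at 14.2 against 5.38 CPM, and at 2 and 10 h the toyocamycin libraries were at 3.57 to 4.86 CPM against 4.67 to 7.61 CPM in DMSO. With mitochondrial scaling the log2 fold change at 72 h was 0.65 and no longer passed the threshold.

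In the thioredoxin system, SRXN1 and TXNRD1 were both higher at 72 h, TXNRD1 with the exception of mitochondrial scaling. SRXN1 (chr20:646615-653200), sulfiredoxin, which repairs overoxidized peroxiredoxins, was at 12.8, 8.68 and 4.16 CPM in DMSO and at 46.4, 35.8 and 53.6 CPM on toyocamycin at 72 h (log2 fold change 2.44, SE 0.32, 5.44-fold higher, edgeR adjusted p = 3.1e-06). Its toyocamycin libraries exceeded DMSO at 10 h (20.6 and 13.3 against 8.06 CPM), 24 h (34.5 against 8.14 CPM) and 48 h (50.2 against 15.9 CPM). TXNRD1 (chr12:104215779-104350307), the cytosolic thioredoxin reductase, was at 144, 137 and 169 CPM in DMSO and at 245, 209 and 237 CPM on toyocamycin at 72 h (log2 fold change 0.65, SE 0.13, 1.57-fold higher, edgeR adjusted p = 0.00028). TXNRD1 was at 129 and 112 CPM against 158 CPM at 10 h, 209 against 128 CPM at 24 h and 257 against 209 CPM at 48 h, and the direction turned with library size alone (-0.29 at both times) and with mitochondrial scaling (-1.55 at 24 h and -1.52 at 48 h). The TXNRD1 call at 72 h depended on scaling, with a log2 fold change of 0.97 with DESeq2 size factors, 0.05 with library size alone and -0.40 with mitochondrial scaling. A gene within TXNRD1 on the same strand, EID3, had 1 to 5 counts in DMSO and 27 to 36 on toyocamycin at 72 h, against 2253 to 3937 counts of TXNRD1. Another protein-coding gene overlaps SRXN1 on the same strand, with 0 to 1 counts in DMSO and 0 to 4 on toyocamycin at 72 h. SRXN1 had 97 to 258 and 386 to 617 counts there, and reads shared by both genes were not examined.

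The ferritin genes, which encode the shell that stores iron, had their highest levels at 10 and 24 h on toyocamycin. FTL (chr19:48965309-48966879) was at 975 and 747 CPM on toyocamycin at 10 h against 283 CPM in DMSO (log2 fold change 1.61, SE 0.24, 3.05-fold higher, edgeR adjusted p = 1.0e-04), and at 1003 against 361 CPM at 24 h, where mitochondrial scaling turned the difference to -0.78. At 48 h it was at 246 against 292 CPM. At 72 h it had fallen to 121, 120 and 123 CPM against 480, 510 and 483 CPM in DMSO, a log2 fold change of -1.98 (SE 0.12, 3.96-fold lower, edgeR adjusted p = 2.9e-10). With TMM scaling FTL was thus above DMSO at 10 and 24 h and below it at 72 h. The arms did not overlap at 72 h, nor at 10 h, where DMSO had 1 library. With mitochondrial scaling the log2 fold change at 10 h was 0.51 and no longer passed the threshold.

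FTH1 (chr11:61959718-61967634) was at 635 and 651 CPM on toyocamycin at 10 h against 313 CPM in DMSO (log2 fold change 1.04, SE 0.38, 2.05-fold higher, edgeR adjusted p = 0.043), and at 703 against 261 CPM at 24 h. By 48 h it was at 336 against 261 CPM, a direction that turned with library size alone (-0.22) and with mitochondrial scaling (-1.46). At 72 h the arms overlapped, at 357, 254 and 162 CPM in DMSO and 216, 222 and 259 CPM on toyocamycin (log2 fold change -0.12, SE 0.23, edgeR adjusted p = 0.64), and the sign of this value changed with DESeq2 size factors (0.20). Without replicate 3 of DMSO, FTH1 was called lower at 72 h (-0.37, edgeR adjusted p = 0.097), and with mitochondrial scaling the log2 fold change at 10 h was -0.11. FTH1 overlaps BEST1 on the other strand, which had 10 to 14 counts in DMSO and 264 to 267 on toyocamycin at 72 h against 2197 to 2975 counts of FTH1 on toyocamycin, and the strand setting of the counting is not given in the sources used here.

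The ratio of FTL to FTH1 counts, the light to the heavy chain, was 0.903 to 2.99 in the 8 DMSO libraries. On toyocamycin it was 0.961 to 1.54 at 2 to 24 h, 0.733 at 48 h and 0.475 to 0.563 at 72 h. At 72 h the mean log2 ratio was -0.93 ± 0.13 on toyocamycin and 1.0 ± 0.58 in DMSO (SD, n = 3 each), a difference of -1.93 or 3.82-fold, with exact two-sided permutation p = 0.1, the smallest that this design allows. Both ferritin genes together took 0.0637% to 0.0928% of counts in DMSO, 0.135% and 0.145% on toyocamycin at 10 h and 0.0248% to 0.0288% at 72 h.

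The early time points asked which genes respond before long exposure. At 2 h, 0 of the 9 genes passed the threshold by edgeR's quasi-likelihood test, where 8.94% of all genes did, 8.42% lower and 0.518% higher. At an unadjusted p under 0.05 there was 1, SLC7A11 (4.6 and 3.79 CPM against 4.67 and 7.61 CPM, log2 fold change -0.53, SE 0.24), and the DESeq2 Wald test called 0. Both toyocamycin libraries lay above both DMSO libraries for NQO1, FTH1 and FTL and under them for GCLM, GCLC and SLC7A11, as they did for 16.7% and 20.3% of all genes. NQO1 was at 162 and 203 CPM on toyocamycin against 151 and 159 CPM, and FTL at 454 and 454 CPM against 408 and 362 CPM. GCLM was at 26.6 and 25.5 CPM against 29.2 and 29.9 CPM, and GCLC at 67.9 and 75.9 CPM against 77.4 and 82.1 CPM. For HMOX1 (2.73 and 4.01 against 4.33 and 3.96 CPM) and TXNRD1 (125 and 141 against 135 and 166 CPM) the arms overlapped. The replicate number at 2 h is also the batch in the labels, and the fit of the 4 libraries with the replicate as a block, which leaves 1 residual degree of freedom before moderation, called 2 of the 9 genes higher, where 8.72% of all genes were higher and 18.7% lower. These were FTH1 (log2 fold change 0.46, SE 0.11, edgeR adjusted p = 0.00050), at 294 and 473 CPM on toyocamycin against 248 and 290 CPM, and SRXN1 (0.54, SE 0.17, edgeR adjusted p = 0.0098), at 17.1 and 11.1 CPM against 11.9 and 7.35 CPM. Without replicate 1 of DMSO, SLC7A11 was called lower (-0.85, edgeR adjusted p = 0.052). Within batch 1 and batch 2 the log2 difference was 0.25 and 0.70 for FTH1, 0.52 and 0.58 for SRXN1, -0.02 and -0.98 for SLC7A11, and -0.64 and 0.02 for HMOX1.

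At 10 h, 3 of the 9 genes were higher (NQO1, FTH1 and FTL) and 2 were lower (HMOX1 and GCLC), where 44.8% of all genes were called, 20.4% higher and 24.4% lower, and NQO1 and FTH1 changed sign with mitochondrial scaling. SRXN1, at 20.6 and 13.3 CPM against 8.06 CPM, did not pass the threshold (log2 fold change 1.08, SE 0.51, edgeR adjusted p = 0.11). Without overlap, 4 genes lay above the DMSO library (the 3 and SRXN1) and 4 under it (HMOX1, GCLC, TXNRD1 and SLC7A11), against 36.3% and 34.9% of all genes. The DESeq2 Wald test called 4 higher, SRXN1 included, and 2 lower, against 27.6% and 21.4% of all genes. The DMSO arm had 1 library, which the fit assumes to vary like the replicates of other groups. Without replicate 2 of toyocamycin, all 5 genes were called in the same direction and SRXN1 was also higher (log2 fold change 1.36, edgeR adjusted p = 0.054), against 24.0% of all genes higher and 28.0% lower. Without replicate 1, TXNRD1 was called lower in addition (-0.49, edgeR adjusted p = 0.083), against 39.1% of all genes higher and 27.0% lower. Within batch 2, where the remaining pair comprises that replicate and the DMSO library, the log2 differences were 1.40 for FTL, 1.06 for FTH1, 0.77 for NQO1, -1.84 for GCLC and -2.32 for HMOX1. Library size alone left FTL as the sole gene called higher, and mitochondrial scaling left none of the 9 higher and called 4 lower. Under these scalings the median of all genes at 10 h moved from 0.42 to -0.04 and -0.70.

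At 24 h, with 1 library per arm and no test, 5 of the 9 genes lay more than 2-fold above DMSO (GCLM, SLC7A11, SRXN1, FTH1 and FTL) and HMOX1 lay more than 2-fold below it, where 57.5% of all genes were past 2-fold, 29.7% above and 27.8% below. At 48 h, 4 were more than 2-fold above (HMOX1, GCLM, SLC7A11 and SRXN1) and NQO1 was below, where 67.9% of all genes were past 2-fold, 38.1% above and 29.9% below. With mitochondrial scaling, which lowered the median of all genes at 24 h to -2.16, all 5 genes more than 2-fold above DMSO at 24 h and GCLM and SRXN1 at 48 h changed sign, as did TXNRD1 at both times and FTH1 at 48 h.

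The change of the toyocamycin effect between 2 and 72 h was tested directly as the difference of the log2 fold changes. It passed the threshold in 8 of the 9 genes, higher for HMOX1 (5.01, SE 0.29), GCLM (2.25, SE 0.21), SLC7A11 (2.23, SE 0.31), SRXN1 (1.89, SE 0.49) and TXNRD1 (0.83, SE 0.21, and -0.13 with mitochondrial scaling), and lower for NQO1 (-4.43, SE 0.24), FTL (-2.22, SE 0.18) and GCLC (-0.75, SE 0.18). With mitochondrial scaling, SLC7A11 (1.15, edgeR adjusted p = 0.158) and SRXN1 (0.95, edgeR adjusted p = 0.243) lost the call too, which left 2 genes higher, and FTH1 was called lower (-1.62, edgeR adjusted p = 0.0424). In this comparison 76.1% of all genes were called, 38.0% higher and 38.1% lower. For FTH1 the difference was -0.63 (SE 0.37, edgeR adjusted p = 0.14), and it was called lower without DMSO 72 h replicate 3 (-0.88) and without toyocamycin 2 h replicate 1 (-0.93).

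The same interval was compared within DMSO. Between 2 and 72 h, SLC7A11 (log2 fold change 0.57, SE 0.21, edgeR adjusted p = 0.091) and FTL (0.35, SE 0.13, edgeR adjusted p = 0.079) were higher and GCLM (-0.41, SE 0.15, edgeR adjusted p = 0.072) was lower (0.28 with mitochondrial scaling), where 21.6% of all genes were called, 10.2% higher and 11.4% lower. HMOX1 (0.17, SE 0.20) and NQO1 (-0.18, SE 0.16) did not pass the threshold. All 3 calls were lost when an adjusted p under 0.05 was required, and leaving out 1 of the 5 libraries kept at most 1 higher and 1 lower.

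Among 20 genes that control NRF2, 11 were higher, 7 were lower and 2 did not pass the threshold at 72 h, with a median log2 fold change of 0.66, where 47.0% of all genes were higher and 41.9% lower, with a median of 0.18. The split was 13 higher and 6 lower with DESeq2 size factors, 9 and 9 with library size alone and 6 and 9 with mitochondrial scaling. NFE2L2 was at 49.5 ± 7.13 CPM in DMSO and 220 ± 6.69 CPM on toyocamycin (SD, n = 3 each), a log2 fold change of 2.19 (SE 0.13, edgeR adjusted p = 2.8e-10). At 2 h it had been lower, at 30.2 and 30.4 CPM against 52.2 and 54.1 CPM (log2 fold change -0.81, SE 0.15, edgeR adjusted p = 0.0036), among 0 genes of the list higher and 5 lower at that time, against 0.518% and 8.42% of all genes. It was at 65.2 and 110 CPM on toyocamycin at 10 h against 51.5 CPM, where 5 genes of the list were higher and 8 lower against 20.4% and 24.4% of all genes, at 213 against 47.3 CPM at 24 h and at 207 against 57.3 CPM at 48 h. KEAP1, which holds NRF2 in check, was at 176 ± 22.4 CPM in DMSO and 56.6 ± 5.68 CPM on toyocamycin at 72 h (log2 fold change -1.60, SE 0.14), and CUL3, the scaffold of its ligase, was higher (1.70, SE 0.12). These transcripts say nothing of the level or position of the NRF2 protein, which was not measured here.

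The small MAF partners were all higher at 72 h. MAFF was at 31.1 ± 2.56 CPM in DMSO and 964 ± 41.7 CPM on toyocamycin at 72 h (log2 fold change 4.99, SE 0.14, edgeR adjusted p = 3.5e-13), and was already higher at 10 h (3.82, SE 0.40). MAFK went from 149 ± 37.3 to 1814 ± 63.9 CPM (log2 fold change 3.64, SE 0.22) and MAFG from 52.4 ± 3.88 to 194 ± 12.5 CPM (1.92, SE 0.15). The repressors BACH1 (0.89, SE 0.17) and BACH2 (3.02, SE 0.19) were higher as well, although both had been lower at 2 h (-0.69, SE 0.21, and -0.88, SE 0.23), and BACH1 changed sign with mitochondrial scaling (-0.15). The coactivators CREBBP (2.07) and EP300 (1.53) and the kinase GSK3B (1.22) were also higher at 72 h.

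Genes of the list that fell at 72 h included DPP3, a peptidase that binds KEAP1 (113 ± 13 CPM in DMSO and 1.80 ± 0.396 CPM on toyocamycin, log2 fold change -5.93, SE 0.20), and the ubiquitin ligase genes SYVN1 (-2.03) and BTRC (-1.54). The related factors NFE2L3 (-1.27) and NFE2L1 (-0.51) and the kinase GSK3A (-1.06) were lower too. SQSTM1, the autophagy receptor that sequesters KEAP1 and is itself an NRF2 target, was at 161 ± 22.4 CPM in DMSO and 154 ± 6.60 CPM on toyocamycin (log2 fold change -0.03, SE 0.13, edgeR adjusted p = 0.83, and 0.29 with DESeq2 size factors). FBXW11 (0.43) was higher and RBX1 (0.20) did not pass the threshold, and both changed sign with library size alone (-0.17 and -0.40) and with mitochondrial scaling (-0.63 and -0.85).

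**Figure D4:**
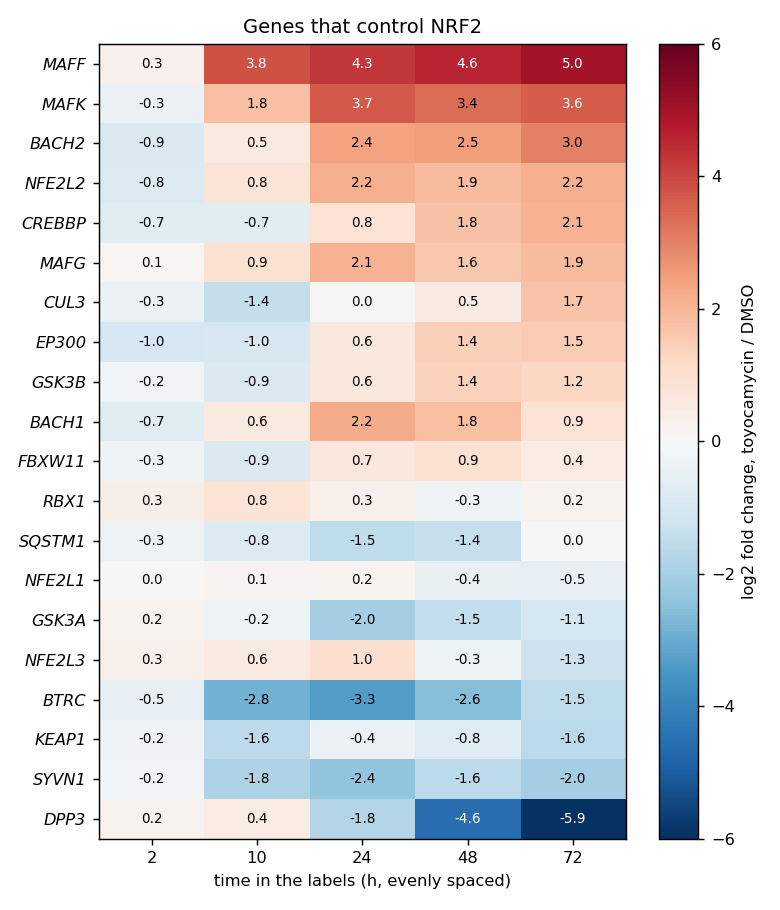
Log2 fold change of toyocamycin over DMSO for 20 genes that control NRF2 (rows, ordered by the value at 72 h) at each time in the labels (columns). Red is higher and blue lower on toyocamycin, and the 24 and 48 h columns have 1 library per arm. MAFF lies at 4.99 and DPP3 at -5.93 at 72 h.

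Other NRF2 targets mostly fell at 72 h. In this and the next lists, only genes whose log2 CPM averaged 1 or more are named, and each count at 72 h stands against 47.0% of all genes higher and 41.9% lower, with a median of 0.18. Of 40 further targets tested, 6 were higher and 32 lower, with a median log2 fold change of -1.89, and the count was 3 higher and 34 lower with mitochondrial scaling. IDH1, a cytosolic source of NADPH, went from 81.0 ± 9.26 to 2.10 ± 0.589 CPM (log2 fold change -5.23, SE 0.21), and BLVRA, which reduces the biliverdin made by HMOX1, from 43.4 ± 1.03 to 2.22 ± 0.751 CPM (-4.24, SE 0.19). EPHX2, an epoxide hydrolase, was also lower (-3.82, SE 0.17). EPHX1, the microsomal epoxide hydrolase, was higher, at 136 ± 8.50 and 237 ± 15.9 CPM (0.83, SE 0.12), and turned to -0.26 with mitochondrial scaling. At 10 h the same list had 12 genes higher and 6 lower of 43 tested, with a median of 0.40 against 0.42 over all genes, of which 20.4% were higher and 24.4% lower. At 2 h 0 were higher and 1 lower, against 0.518% and 8.42% of all genes.

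Of 28 glutathione genes tested at 72 h, 8 were higher and 18 lower, with a median log2 fold change of -0.87, and 2 were higher and 19 lower with mitochondrial scaling. GLRX5, the mitochondrial glutaredoxin (1.26), GGT7 (1.07) and GLO1, glyoxalase 1 (0.82, and -0.21 with mitochondrial scaling), were higher. The transferases GSTZ1 (-3.37) and GSTK1 (-3.22) and OPLAH, the 5-oxoprolinase of the glutathione cycle (-2.80), were lower. GCLM, GCLC and SLC7A11 are not counted in this list.

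Of 24 thioredoxin and superoxide genes, 6 were higher and 17 lower, with a median of -1.72. TXNIP, which inhibits thioredoxin, was at 9.02 ± 1.41 CPM in DMSO and 247 ± 17.8 CPM on toyocamycin at 72 h (log2 fold change 4.80, SE 0.16). The stress-inducible sestrins SESN1 (4.55, SE 0.17) and SESN2 (2.88, SE 0.16) were higher. In DMSO alone TXNIP was lower at 72 h than at 2 h (-4.33, SE 0.16). Its DMSO level was 181 ± 6.55 CPM at 2 h (SD, n = 2), 180 CPM at 10 h, 188 CPM at 24 h and 6.11 CPM at 48 h. The difference at 72 h was thus taken against a DMSO level that had itself fallen. PRDX2, a peroxiredoxin, fell from 152 ± 19.8 to 9.51 ± 0.483 CPM (-3.96, SE 0.16). MSRB1, a methionine sulfoxide reductase (-4.52), and CCS, the copper chaperone of superoxide dismutase (-3.54), were lower as well.

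Of 27 genes of iron handling, 9 were higher and 17 lower at 72 h, with a median log2 fold change of -0.73. The iron chaperone PCBP1, which loads ferritin, went from 2.76 ± 1.53 to 23.8 ± 0.731 CPM (3.16, SE 0.39), ISCU, the scaffold of iron-sulfur cluster assembly, from 52.4 ± 3.34 to 375 ± 10.1 CPM (2.87, SE 0.12), and FBXL5, the iron-sensing ligase subunit, was higher (1.21). The ferrireductase STEAP3 (-3.67) and the biliverdin reductases BLVRA and BLVRB (-3.33) were lower.

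Lists of neighboring stress responses were set beside the 9 genes. Of 19 genes of the ATF4 response, which also acts on SLC7A11, 12 were higher and 6 lower at 72 h, with a median of 1.11, and 12 were higher and 1 lower with DESeq2 size factors, 7 and 6 with mitochondrial scaling. They included ATF3 (2.28 ± 0.304 and 2068 ± 189 CPM, log2 fold change 9.85), ATF4 (158 ± 21.2 and 6803 ± 227 CPM, 5.46) and ASNS (4.0), while PHGDH (-0.94), DDIT4 (-0.56) and ATF5 (-0.53) were lower. DDIT4 had risen in DMSO, from 8.30 ± 0.398 CPM at 2 h to 18.3 ± 5.60 CPM at 72 h. On toyocamycin it was above DMSO at 24 h (10.9 against 4.87 CPM) and 48 h (13.9 against 9.96 CPM), with 1 library per arm. All 6 metallothioneins tested, the metal-binding proteins that MTF1 induces, were lower, with a median of -5.69, MT2A falling from 352 ± 30.9 to 8.2 ± 0.655 CPM. In DMSO all 6 had been higher at 72 h than at 2 h, with a median of 2.14. These genes are near-identical copies, so the value of any single one is uncertain. Of 14 heat shock genes 1 was higher, DNAJB4 (3.49), and 11 were lower, HSPA8 falling from 1925 ± 267 to 114 ± 4.22 CPM (-4.04).

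**Figure D5:**
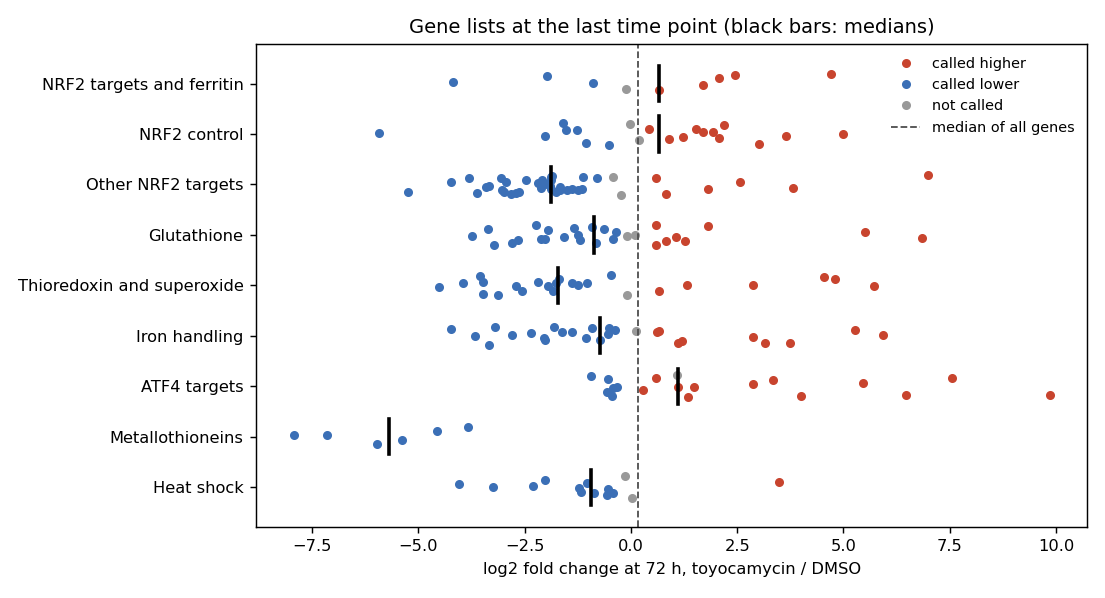
Log2 fold change of toyocamycin over DMSO at 72 h for each tested gene (points) of the lists on the vertical axis, red where called higher, blue where called lower and gray where not called. Black bars are list medians and the dashed line is the median of all genes, 0.18. The 9 genes have a median of 0.65 (-0.40 with mitochondrial scaling), the other NRF2 targets -1.89 and the metallothioneins -5.69.

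Across the 17 libraries, the log2 levels of the 9 genes did not move as 1 group. These values describe libraries that share arms and times and carry no test. HMOX1 and NQO1 had a Pearson correlation of -0.96, GCLM and GCLC one of -0.23, and FTH1 and FTL one of 0.67. GCLM went with SRXN1 (0.89) and TXNRD1 (0.85), and NQO1 went with FTL (0.86). Of 10751 genes, those most like HMOX1 were RBM23 (0.988), RRN3 (0.985) and BCL9L (0.984). Those most like NQO1 were PSME2 (0.997), ABO (0.995) and ADI1 (0.995), those most like GCLM were GNAI1 (0.984), RMND5A (0.982) and ANKRD13C (0.981), and those most like FTL were ETHE1 (0.975), PCCB (0.973) and NDUFB10 (0.972). The closest to the others were CUL1 for GCLC (0.969), ABHD17A for SRXN1 (0.948), MAK16 for TXNRD1 (0.947), TUBE1 for SLC7A11 (0.945) and PPIB for FTH1 (0.906).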

How the data were processed

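Total RNA of YB5 cells was sequenced as polyadenylated, paired-end RNA-seq. Per the publication and the labels, the authors aligned reads to GRCh38 with STAR 2.7.5a and deposited its gene counts as 1 table, in raw read counts. The strand setting is not given in the sources used here. A second deposited table, which holds the authors' own fold changes and p-values, was not used, and 1 count column, whose name reads as a further DMSO library of 10 h, matched no sample label and was left out. Symbols were found for 19080 of 19141 gene identifiers.

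Genes were kept by filterByExpr, scaled by TMM and tested with edgeR 4.0.16 (quasi-likelihood, Benjamini-Hochberg adjusted p under 0.1) in R 4.3.3, on the 14 libraries of 2, 24, 48 and 72 h (14491 genes) and on all 17 for 10 h (16521 genes). The software was tested on simulated counts in which few genes changed, equally up and down. This does not test the scaling where most genes change, as at 72 h. A standard error is the log2 fold change over the root of the F statistic. At 24 and 48 h no test was made and a 2-fold limit was used. Levels are CPM with the 17-library TMM factors. Levels between genes were divided by the union of GENCODE v44 exons. Ratios were compared with exact permutation tests (scipy 1.17.1). Figures were drawn with matplotlib 3.10.9.

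Alternatives were DESeq2 1.42.0 (size factors, Wald test), library size alone, scaling on mitochondrially encoded genes, other filters, a minimum fold change of 1.5, a batch term, a replicate block, all 17 libraries and each library left out. The replicate number at 2 h is the batch in the labels, so the block pairs the 2 h libraries by batch. Same-numbered libraries deviated together there (r = 0.66 over 10751 genes). With 2 libraries per arm this is a single value, since unlike numbers give it with the sign turned (-0.66). At 72 h the correlations of same-numbered libraries were -0.276, 0.182 and -0.243, so the number was not taken as a pairing there. No 2 replicates agreed within sampling noise.

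The 9 genes and the gene lists were chosen with earlier results of these data known. The genes named were the 9, all tested genes that control NRF2, in the other lists the 3 largest rises and falls called at 72 h whose log2 CPM averaged 1 or more and whose arms did not overlap, and for each of the 9 genes the 3 with the highest correlation. Totals of 8735465 to 22121364 counts limit the precision of low genes, and counting error is only part of the spread.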

Additional observations from a re-analysis of the deposited data

Results flagged for a closer look

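The effect of toyocamycin differed between 2 and 72 h, by a test of the difference itself, in 8 of the 9 genes. Of all genes, 76.1% were called in this test, 38.0% higher and 38.1% lower. The log2 fold change at 72 h minus that at 2 h was 5.01 for HMOX1, 2.25 for GCLM, 2.23 for SLC7A11, 1.89 for SRXN1 and 0.83 for TXNRD1, and -4.43 for NQO1, -2.22 for FTL and -0.75 for GCLC. At 72 h the libraries of the arms did not overlap for any of these 8 genes. For 5 they lay above DMSO and for 3 below it, as for 45.8% and 41.8% of all genes. At 2 h, 0 of the 9 passed the threshold of edgeR's quasi-likelihood test, where 8.94% of all genes did. There 1 of the 9 had an unadjusted p under 0.05 and DESeq2 called 0. The replicate block, which pairs the 2 h libraries, called FTH1 (0.46) and SRXN1 (0.54) higher at 2 h. With mitochondrial scaling the sign of the difference turned for TXNRD1 (-0.13), and SLC7A11 (1.15, edgeR adjusted p = 0.158) and SRXN1 (0.95, edgeR adjusted p = 0.243) no longer passed the threshold. With library size alone TXNRD1 was at 0.28 and not called. No group held 4 or more libraries, so no single library was tested for distance from its group.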

How the results depend on the processing

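Of 872 values of the 9 genes under alternatives, 721 kept direction and call, 46 changed sign, and the cause was not tested. With mitochondrial scaling the counts higher and lower were 0 and 4 at 10 h, 0 and 5 at 24 h, 1 and 5 at 48 h, and 0 and 0 in the DMSO comparison of 72 with 2 h, and 3 were higher at 72 h and 2 for the difference of effects. It also moved the median of all genes, to -0.70 at 10 h, -2.16 at 24 h and -1.64 at 48 h. It turned NQO1 (-0.42), GCLM (-1.0) and FTH1 (-0.11) at 10 h, GCLM (-1.01), SLC7A11 (-0.85), SRXN1 (-0.17), TXNRD1 (-1.55), FTH1 (-0.83) and FTL (-0.78) at 24 h, GCLM (-0.55), SRXN1 (-0.17), TXNRD1 (-1.52) and FTH1 (-1.46) at 48 h, TXNRD1 at 72 h (-0.40) and in the difference (-0.13), and in DMSO TXNRD1 (0.73), NQO1 (0.50), GCLM (0.28), SRXN1 (0.48) and FTH1 (0.75). It also turned BACH1 (-0.15), CDX2 (-0.52), EPHX1 (-0.26), FBXW11 (-0.63), GLO1 (-0.21) and RBX1 (-0.85) at 72 h. With library size alone, 1 was higher and 4 lower at 10 h, 1 and 3 at 24 h, 2 lower at 48 h and 0 higher in DMSO, with GCLM at -0.39 at 10 h, TXNRD1 at -0.29 at 24 and 48 h, FTH1 at -0.22 at 48 h and FBXW11 (-0.17) and RBX1 (-0.40) turned at 72 h. The median of all genes was then -0.04 at 10 h, -0.91 at 24 h and -0.41 at 48 h. FTH1 at 72 h was 0.20 with DESeq2 size factors and the Wald test, 0.16 with 10 counts in every library and, with 1 library left out, -0.37 (without DMSO replicate 3) to 0.19 (without DMSO replicate 1). SQSTM1 at 72 h was 0.29, 0.29 and 0.25 in the same fits, 0.068 with the 72 h libraries alone and, with 1 library left out, -0.14 to 0.065, turning also without toyocamycin replicate 2 (0.0026). FTL at 48 h was 0.013 with DESeq2 size factors and 0.022 with 10 counts in every library, and HMOX1 at 2 h was 0.018 within batch 2. GCLM at 10 h was -0.19 within batch 2, -0.0060 with a batch term and -0.19 to 0.32 with 1 toyocamycin library left out. In DMSO, TXNRD1 was 0.020 with DESeq2 size factors and the Wald test and 0.048 with a batch term, FTH1 was 0.098 with a batch term, and with libraries left out TXNRD1 was -0.14 to 0.15, SRXN1 -0.59 to 0.21 and FTH1 -0.37 to 0.18. With 10 counts in every library 1 was lower at 10 h, since HMOX1 was not tested, and with DESeq2 size factors 0 were lower at 24 h. A minimum fold change of 1.5 left 1 higher at 10 h. In DMSO, 0 and 0 were called at an adjusted p under 0.05, with that minimum fold change and in the fit of all 17 libraries, and 1 was higher with a batch term and with no filter. Leaving out each 72 h library gave 5 to 5 higher and 3 to 4 lower at 72 h. The GCLM to GCLC ratio was then 2.91 to 3.02 and FTL to FTH1 -2.22 to -1.65. Counts from fits that left 1 library in a group, as at 2 and 10 h, are left out here.

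The replicate block called 2 of the 9 genes higher at 2 h, where 8.72% of all genes were higher and 18.7% lower. At 72 h, where the numbers share no batch, the block called 5 higher and 3 lower, with FTH1 at 0.049 and SQSTM1 at 0.078, and a paired permutation of the ratios gave an exact p of 0.25, the smallest for 3 pairs. Low counts limit HMOX1 at 10 h, with 9 to 21 counts on toyocamycin, and single libraries limit 24 and 48 h.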
